A study of Mus musculus with 18 samples.

Results

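The genes described here are 9 genes that coat lipid droplets or control the release and the making of stored fat, namely Plin4, Plin2, Plin3, Pnpla2, Abhd5, Lipe, Mgll, Angptl4 and Dgat1. They were taken by gene symbol, with every probe set of the array that the platform annotation gives to one of them alone, which made 15 of the 22690 probe sets. One probe set stood for each gene, that of the highest mean over all arrays, and all 9 genes were among the 8320 genes tested. The genes were chosen with their response to paraquat known, so the paraquat values below describe them and do not test them.

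Expression was measured with Affymetrix 3′ arrays in the cerebellum of adult male mice aged 80 ± 5 days, in a study of how apolipoprotein D (ApoD), a secreted lipid-binding protein, affects the early transcriptional response to oxidative stress. Paraquat, a herbicide that produces superoxide by redox cycling, was injected once into the peritoneum at 30 mg/kg in 200 µl of saline, control mice received saline alone, and the tissue was frozen 6 h later. The 3 genotypes were wild-type, ApoD knock-out, and a gain-of-function mutant that carries a Human-ApoD transgene expressed in neurons. Each of the 6 groups of genotype and treatment had 9 mice, whose RNA was pooled from 3 mice per array, so that a group had 3 arrays. The sample titles name paraquat for 9 arrays, and the remaining 9 were read as saline controls because the protocol describes no other arm. The p-values therefore measure the spread between pools, and in this whole tissue a change in the share of a cell type and a change in RNA per cell cannot be told apart.

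Neutral fat is stored in cells as triglyceride in lipid droplets, whose surface carries perilipins (Plin genes) that govern access of lipases to the core. Triglyceride is broken down in steps, by adipose triglyceride lipase (Pnpla2) with its activator CGI-58 (Abhd5), then by hormone-sensitive lipase (Lipe), then by monoglyceride lipase (Mgll), which in brain also degrades the endocannabinoid 2-arachidonoylglycerol. Dgat1 makes triglyceride from diacylglycerol, and Angptl4 is a secreted inhibitor of lipoprotein lipase, the enzyme that frees fatty acids from circulating lipoproteins.

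The sequences upstream of 3 of these genes are shown because the results turn on Plin4 and Pnpla2, and because the upstream sequence of Mgll, a gene with little response, held letters that the glucocorticoid receptor is known to bind. RefSeq promoters of build GRCm38.p6 were matched by symbol for 7 of the 9 genes, leaving Angptl4 and Dgat1 unmatched. The 250 bases before the annotated start are given 5′ to 3′ on the gene's strand for Plin4 (chr17:56109783-56110032, minus strand), Pnpla2 (chr7:141454938-141455187, plus strand) and the first of the 2 Mgll starts (chr6:88724162-88724411, plus strand). Capitals mark the matches described in the next paragraph.
Plin4: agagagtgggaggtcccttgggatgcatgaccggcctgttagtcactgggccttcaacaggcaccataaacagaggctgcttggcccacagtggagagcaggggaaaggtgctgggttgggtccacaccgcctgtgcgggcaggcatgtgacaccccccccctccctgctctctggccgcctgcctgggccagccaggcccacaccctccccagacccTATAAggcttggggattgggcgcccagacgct
Pnpla2: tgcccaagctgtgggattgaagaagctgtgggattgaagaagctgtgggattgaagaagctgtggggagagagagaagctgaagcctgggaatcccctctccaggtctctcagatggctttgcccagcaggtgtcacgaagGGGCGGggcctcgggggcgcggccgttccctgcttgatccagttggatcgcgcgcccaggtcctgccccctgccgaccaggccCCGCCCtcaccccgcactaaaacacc
Mgll: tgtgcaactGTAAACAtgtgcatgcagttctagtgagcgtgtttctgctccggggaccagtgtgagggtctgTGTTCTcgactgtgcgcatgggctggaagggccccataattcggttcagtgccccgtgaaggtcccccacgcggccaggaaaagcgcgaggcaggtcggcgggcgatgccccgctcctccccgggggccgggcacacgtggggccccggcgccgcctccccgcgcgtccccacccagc

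In Plin4 the capitals are TATAA at bases 32 to 28 before the start, letters that 22.8% of the 32851 promoters of that length held on either strand. In Pnpla2 they are GGGCGG at bases 109 to 104 and its reverse complement CCGCCC at bases 26 to 21, a motif held by 32.7% of promoters. Both of these motifs were chosen for search after the sequences were seen. In Mgll they are TGTTCT at bases 178 to 173, the reverse complement of AGAACA, the hexamer that the glucocorticoid receptor binds (16.1% of promoters), and GTAAACA at bases 241 to 235, the reverse complement of the FoxO site TGTTTAC (3.17%). The FoxO letters also occurred before the second Lipe start, at bases 119 to 113. The full glucocorticoid receptor palindrome, AGAACA and TGTTCT with 3 bases between (0.00913% of promoters), and the PPAR-RXR direct repeat, AGGTCA repeated with 1 base between (0.0335%), were not in these windows for any of the 7 genes. The motifs were searched on both strands. None of the exact glucocorticoid receptor, FoxO or PPAR-RXR letters was in the windows printed for Plin4 and Pnpla2, which says only that these 250 bases do not hold them. Close variants were not searched for. The Plin4 window holds ATAAACA, which differs from the FoxO letters GTAAACA in 1 base. The other genes were not searched for such near matches, and no share of promoters was counted for them, so this match is read no further.

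The arrays had medians of 7.10 to 7.15 on the deposited log2 scale, except the second knock-out paraquat array at 6.98, whose mean correlation with the other arrays was 0.971 against 0.986 to 0.993. The third transgenic arrays, saline and paraquat, had the lowest difference between the 3′ and 5′ probe sets of the pyruvate carboxylase control, at 1.82 and 1.95 against 2.25 to 3.16 elsewhere. The first transgenic arrays, saline and paraquat, had the highest values of the dap control, at 11.76 and 12.19 against 10.13 to 10.79 elsewhere. Apod was 12.4 to 12.8 over the saline and paraquat arrays of wild-type and 12.1 to 12.4 over those of transgenic, where the array's mouse probes need not read the human transgene. In knock-out it was 8.22 to 8.50 with saline and 9.16 to 9.83 with paraquat, so that every knock-out paraquat array read higher than every knock-out saline array. Most cerebellar markers were high, with Pcp2, Calb1, Gabra6 and Zic1 among the brightest genes. The granule neuron markers Zic2 and Pax6 were less so, with medians at the 47.7th and 73.7th percentile. The fat cell markers Adipoq, Lep, Cidec and Fabp4 had medians over the 18 arrays at or below the 15.5th percentile. The remaining fat cell marker on the array, Retn, had its median at the 47.1th percentile and ran from 6.53 to 8.21. The mean of the 5 fat cell markers was 4.61 to 4.84 in arrays of the other groups and 4.69 to 5.21 in knock-out paraquat arrays. In transgenic saline arrays all 4 choroid plexus markers tested were called lower than in wild-type (median log2 difference -1.89), where 6.36% of all genes were called. So were 2 of 4 meningeal and fibroblast markers (median -0.40) and 1 of 4 endothelial markers. Called higher there were 1 of 6 astrocyte markers and 1 of 2 markers of a neighbouring brain region. Under paraquat 2 of 4 choroid plexus (median -0.70) and 3 of 4 meningeal and fibroblast markers (median -0.54) were called lower in transgenic than in wild-type. Also lower was 1 marker each of Purkinje neurons, microglia, pericytes, endothelium and the neighbouring region. Called higher were 2 of 6 astrocyte markers and 1 endothelial marker. Of all genes 14.3% were called lower and 4.64% higher there. Of the endothelial markers 2 of 4 were called lower with paraquat in wild-type and 3 of 4 in knock-out. Of the microglia markers 1 of 5 was called lower with paraquat in each of these genotypes. In wild-type 166 of all 8320 genes were called with paraquat, 127 of them higher, and in knock-out 1.47% of all genes were called lower. The part of these differences in the results below was not tested.

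The droplet coat gene Plin4 had the largest increase with paraquat of all 8320 genes in each of the 3 genotypes, and the lipase inhibitor Angptl4 and the lipase Pnpla2 were also higher with paraquat in wild-type and knock-out cerebellum. The Plin4 ratio was 8.95 in wild-type and 9.22 in knock-out. The other perilipins Plin2 and Plin3, the lipase activator Abhd5, the lipases Lipe and Mgll, and the synthetic enzyme Dgat1 differed by a log2 of at most 0.52 in any genotype. In the transgenic cerebellum the paraquat values of Plin4, Angptl4 and Pnpla2 were lower than in the other genotypes, and the 3 arrays of that group were far apart.

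**Figure D1:**
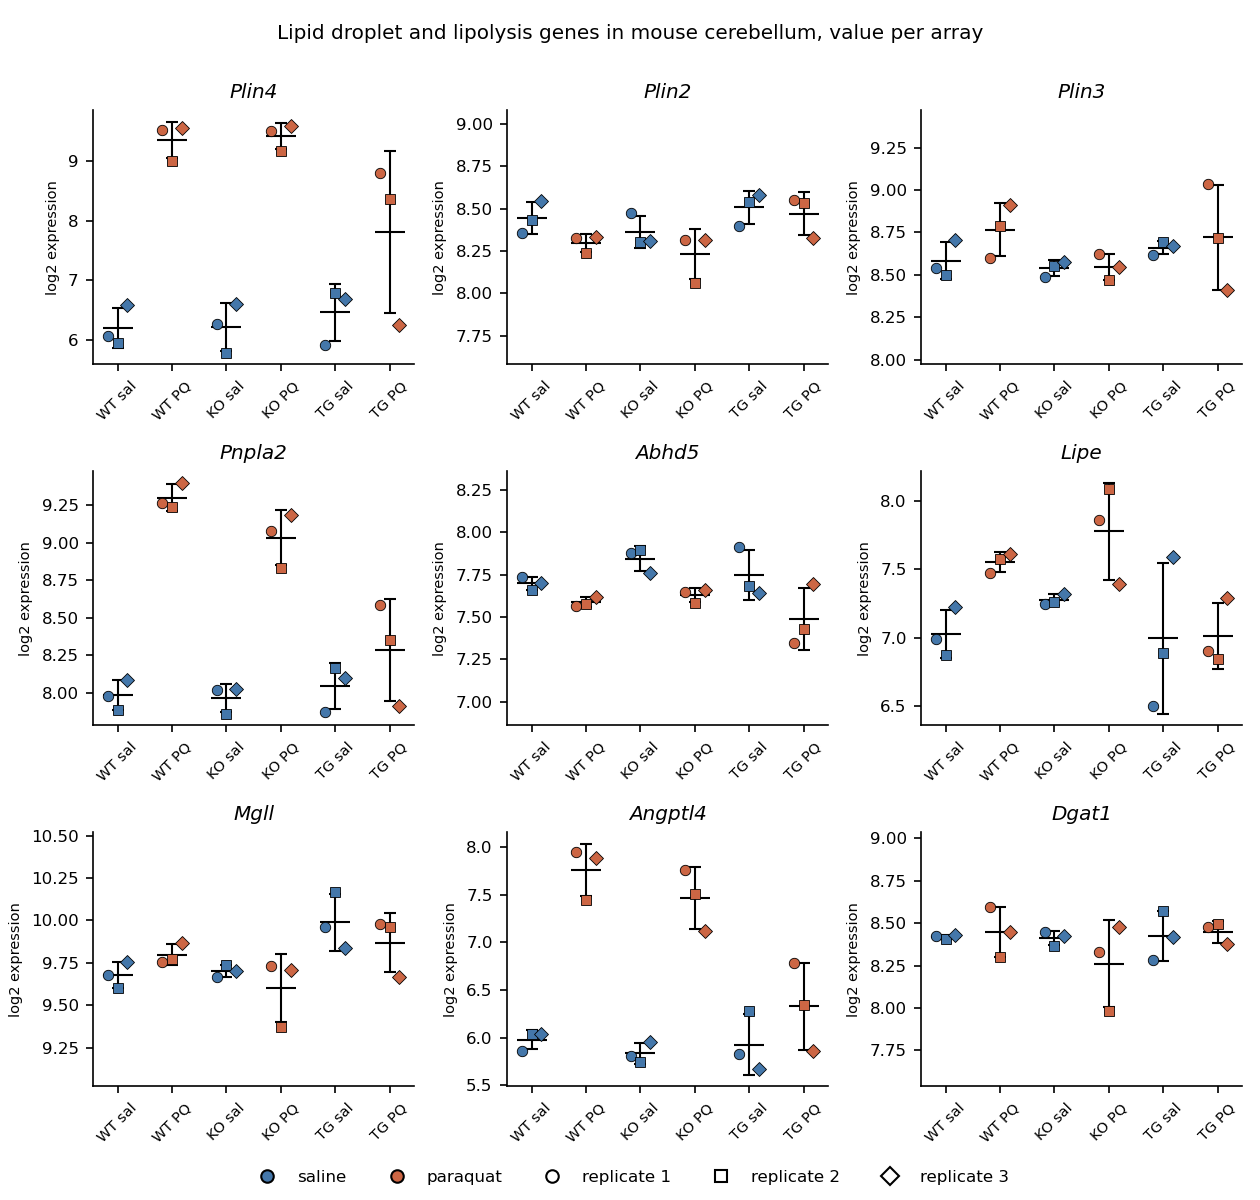
Deposited log2 expression of the 9 genes (vertical axis, 1 panel per gene with its own scale) in wild-type (WT), ApoD knock-out (KO) and Human-ApoD transgenic (TG) cerebellum after saline (sal) or paraquat (PQ). Each point is 1 array (a pool of 3 mice), marker shape is the replicate number, and bars give the mean ± SD. For Plin4 the 6 wild-type and knock-out paraquat arrays sit between 9.01 and 9.59, all saline arrays sit below 6.80, and the transgenic paraquat arrays run from 6.25 to 8.80.

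Plin4 belongs to the perilipin coats and has a long repeated amphipathic helix that lies on the droplet surface. In wild-type it was 6.06, 5.95 and 6.58 in the 3 saline arrays and 9.52, 9.01 and 9.55 in the 3 paraquat arrays (log2, replicates 1 to 3). In knock-out it was 6.28, 5.78 and 6.60 with saline and 9.51, 9.17 and 9.59 with paraquat. In both genotypes every paraquat array was above every saline array, by more than 2 log2 units. The log2 difference was 3.16 (SE 0.42, n = 3 against 3) in wild-type and 3.20 (SE 0.42) in knock-out. In saline arrays Plin4 was low, with group means at the 38.4th, 38.5th and 41.4th percentile of the array in wild-type, knock-out and transgenic, and it reached the 40th percentile required by the filter on 4 of the 9 saline arrays against 8 of the 9 paraquat arrays. In wild-type paraquat arrays its mean stood at the 81.9th percentile.

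In transgenic mice Plin4 was 5.91, 6.79 and 6.69 with saline and 8.80, 8.36 and 6.25 with paraquat. The first and second paraquat arrays were above all 3 saline arrays, and the third lay within their range. The log2 difference was 1.34 (SE 0.42, 95% confidence interval 0.46 to 2.22). It moved to 2.11 without the third paraquat array, and to 2.22 without the third saline and paraquat arrays together, an alternative chosen after seeing the data. By replicate number the paraquat array minus the saline array was 2.88, 1.57 and -0.43 in transgenic, against 3.46, 3.06 and 2.97 in wild-type and 3.23, 3.39 and 2.99 in knock-out. Ordered by mean, the groups ran from knock-out paraquat (9.42 ± 0.22, SD, n = 3) and wild-type paraquat (9.36 ± 0.30), which overlapped, through transgenic paraquat (7.80 ± 1.36) to the 3 saline groups (6.46, 6.22 and 6.20 in transgenic, knock-out and wild-type), each of which overlapped its neighbours in the order.

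Plin2, the coat of droplets in most tissues and a gene that usually follows fat load, did not share this pattern. It was 8.36, 8.43 and 8.54 in wild-type saline arrays and 8.32, 8.24 and 8.33 in wild-type paraquat arrays, so that all 3 paraquat arrays were lower, by little. The log2 difference was -0.15 (SE 0.10) in wild-type, -0.13 (SE 0.10) in knock-out and -0.04 (SE 0.10) in transgenic, with overlapping arrays in the last 2. Plin3, a coat that moves between cytosol and new droplets, ranged from 8.41 to 9.03 over all 18 arrays, and its paraquat and saline arrays overlapped in each genotype (log2 differences 0.18, 0.01 and 0.06, each SE 0.13). Its lowest and highest values, 8.41 and 9.03, were the third and the first transgenic paraquat arrays.

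Pnpla2 encodes the lipase that takes the first fatty acid from triglyceride. In wild-type it was 7.98, 7.89 and 8.08 with saline and 9.27, 9.24 and 9.40 with paraquat, a log2 difference of 1.32 (SE 0.14) and a ratio of 2.49. In knock-out it was 8.02, 7.86 and 8.03 with saline and 9.08, 8.83 and 9.19 with paraquat, a log2 difference of 1.07 (SE 0.14). The arrays of the 2 treatments stood well apart in both genotypes. In transgenic it was 7.87, 8.16 and 8.10 with saline and 8.59, 8.35 and 7.91 with paraquat, a log2 difference of 0.24 (SE 0.14), where the third paraquat array lay inside the saline range. Without that array the Pnpla2 difference was 0.43. Pnpla2 ranked 20, 23 and 148 among the 8320 genes by increase with paraquat in wild-type, knock-out and transgenic. Its other probe set did not reach the 40th percentile on any array (group means at the 6.36th to 11.8th percentile) and gives no second reading.

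Abhd5, whose product activates that lipase, had small differences of the other sign, none of them called. It was 7.74, 7.66 and 7.70 in wild-type saline arrays against 7.56, 7.58 and 7.62 with paraquat, and 7.88, 7.89 and 7.76 in knock-out saline arrays against 7.65, 7.58 and 7.66 with paraquat. All paraquat arrays of those 2 genotypes were below the saline arrays of the same genotype, with log2 differences of -0.11 (SE 0.10, limma adjusted p = 0.92) and -0.22 (SE 0.10, adjusted p = 0.28). The medians over all genes there were 0.02 and -0.09. In transgenic the difference was -0.26 (SE 0.10) and the arrays overlapped, since the third paraquat array stood at 7.69 against 7.34 and 7.43 for the first and second. The other Abhd5 probe set gave -0.09, -0.38 and -0.11 (each SE 0.14) for wild-type, knock-out and transgenic, with overlapping arrays in wild-type and transgenic.

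Lipe, which cleaves diacylglycerol, was 6.99, 6.87 and 7.22 with saline and 7.47, 7.57 and 7.61 with paraquat in wild-type. In knock-out it was 7.25, 7.26 and 7.32 with saline and 7.86, 8.09 and 7.39 with paraquat. The groups did not overlap in either genotype, with log2 differences of 0.52 (SE 0.21) and 0.50 (SE 0.21). Neither difference was called (limma adjusted p = 0.32 and 0.21), and the third knock-out paraquat array was within 0.07 of the saline array of the same number. In transgenic the saline arrays spread from 6.50 to 7.59 and the paraquat arrays from 6.84 to 7.29, a log2 difference of 0.02 (SE 0.21).

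Mgll ended the pathway with values of 9.37 to 10.17 over all arrays and paraquat differences of 0.12, -0.10 and -0.12 (each SE 0.12) in wild-type, knock-out and transgenic. Its lowest value, 9.37, was the second knock-out paraquat array. The 2 other Mgll probe sets that passed the filter gave 0.16 and 0.18 in wild-type, 0.18 and -0.15 in knock-out, and -0.08 and -0.29 in transgenic, so their signs were not the same in knock-out. A further Mgll probe set passed the 40th percentile on no array.

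Angptl4 was near the low end of the array without paraquat. In wild-type it was 5.86, 6.03 and 6.03 with saline and 7.95, 7.44 and 7.88 with paraquat, a log2 difference of 1.78 (SE 0.20) and a ratio of 3.44. In knock-out it was 5.80, 5.74 and 5.96 with saline and 7.76, 7.50 and 7.11 with paraquat, a log2 difference of 1.62 (SE 0.20). Angptl4 reached the 40th percentile on none of the 9 saline arrays, on all 6 wild-type and knock-out paraquat arrays and on 1 transgenic paraquat array, so it entered the fit only through the arrays where it was high. In transgenic it was 5.83, 6.28 and 5.67 with saline and 6.78, 6.34 and 5.86 with paraquat, a log2 difference of 0.40 (SE 0.20) with overlapping arrays, and 0.63 without the third paraquat array. A second Angptl4 probe set ran from 3.41 to 3.86 over all arrays, below the 40th percentile on each. The target of this inhibitor, Lpl, is among the other lipid genes below.

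Dgat1 ranged from 7.98 to 8.60, again with its lowest value in the second knock-out paraquat array. Its paraquat differences were 0.03, -0.15 and 0.02 (each SE 0.12) in wild-type, knock-out and transgenic, and the arrays of the 2 treatments overlapped in each.

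**Figure D2:**
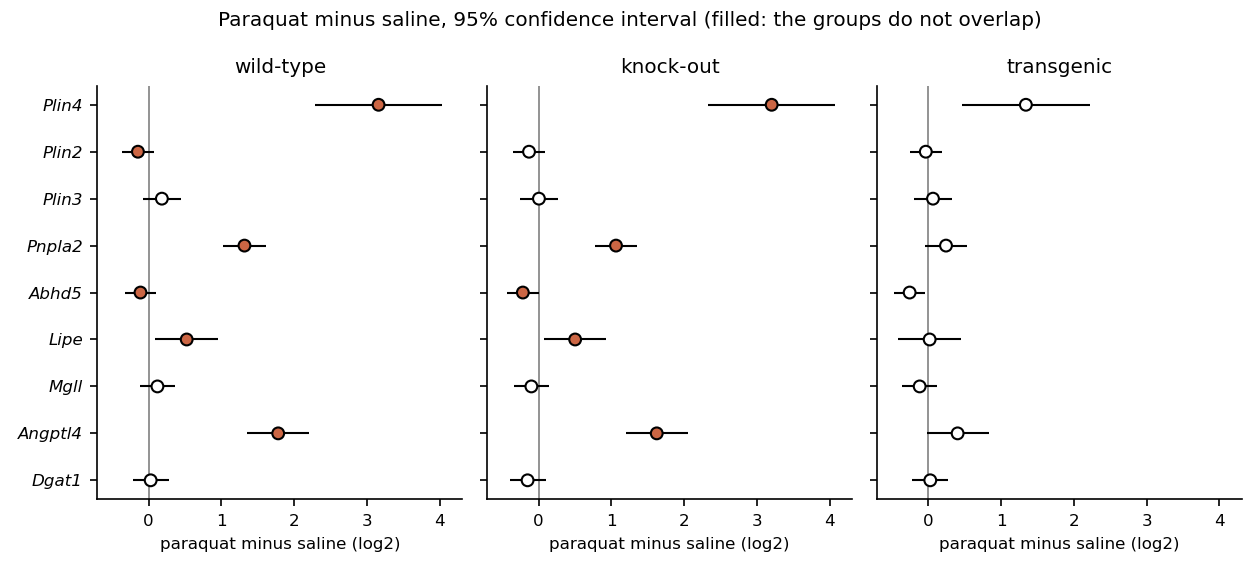
Paraquat minus saline on the log2 scale (horizontal axis) for the 9 genes in each genotype, with 95% confidence intervals from limma. Filled points are genes whose 3 paraquat arrays do not overlap the 3 saline arrays. Plin4, Angptl4 and Pnpla2 lie at 3.16, 1.78 and 1.32 in wild-type and at 1.34, 0.40 and 0.24 in transgenic, where no point is filled.

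Counted over the 9 genes, 3 were called higher with paraquat in wild-type at a limma adjusted p under 0.05, namely Plin4, Pnpla2 and Angptl4, where 1.53% of all genes were called higher. The same 3 were called higher in knock-out, where 0.793% of all genes were called higher. In wild-type 4 of the 9 genes had paraquat arrays all above the saline arrays (16.6% of all genes) and 2 had them all below (11.8%), and in knock-out 4 were above (4.99%) and 1 below (17.7%). Because the genes were chosen for these values, the counts are read no further. The median paraquat difference of the 9 genes was 0.18 in wild-type against 0.02 for all genes, 0.01 in knock-out against -0.09, and 0.02 in transgenic against -0.03, so that as a group they were not shifted in the way that Plin4, Angptl4 and Pnpla2 were.

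In transgenic cerebellum limma called none of the 9 genes and 0% of all genes, while 2 of the 9 (Plin4 and Abhd5) and 118 of all genes had an unadjusted p under 0.05. No member had groups that did not overlap, against 3.69% of all genes. With the replicate number as a block in a fit of the 6 transgenic arrays alone, chosen after seeing the data, 1 of the 9 was called (Plin4, limma adjusted p = 0.0020), beside 12 of all genes. The labels state no such pairing, and the same-numbered differences of Plin4 were 2.88, 1.57 and -0.43. Without the third transgenic paraquat array Plin4 was likewise called (adjusted p = 0.0015).

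**Figure D3:**
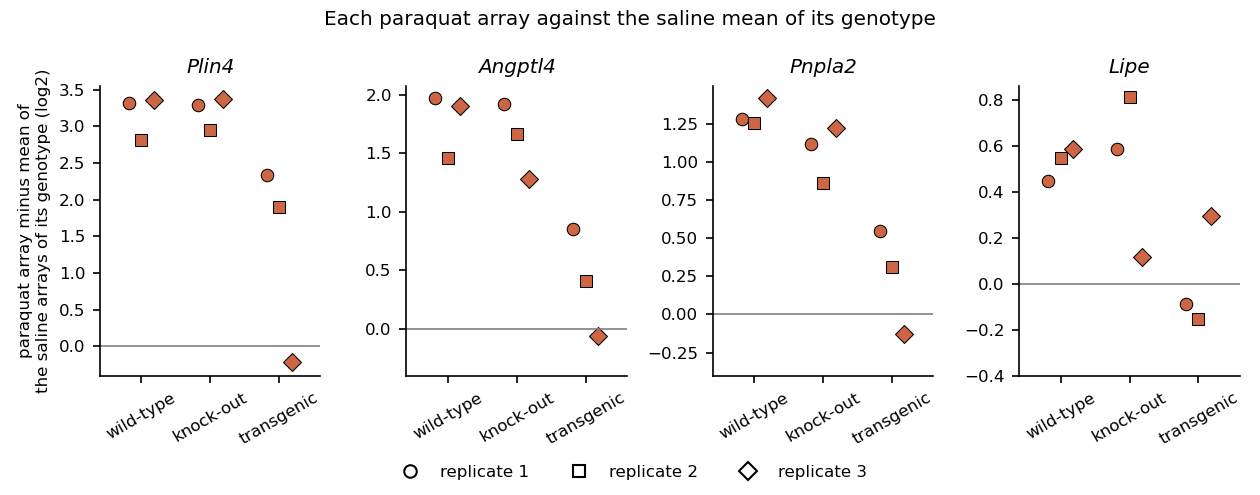
Each paraquat array minus the mean of the saline arrays of its genotype (vertical axis, log2) for Plin4, Angptl4, Pnpla2 and Lipe, with marker shape giving the replicate number. The third transgenic array lies at -0.21 for Plin4, -0.06 for Angptl4 and -0.13 for Pnpla2, below every wild-type and knock-out array, and for Lipe it is the only transgenic array above 0.

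Between genotypes under saline the 9 genes differed by a log2 of at most 0.31 in size, in comparisons that share their saline arrays with those that chose them. For knock-out against wild-type none was called by limma (0.0240% of all genes were called, and 0 of the 9 and 1.55% of all genes had an unadjusted p under 0.05), and the largest difference was that of Lipe, 0.25 (SE 0.21, 95% interval -0.18 to 0.68). For Plin4 the knock-out minus wild-type difference was 0.02, with a 95% interval of -0.86 to 0.90. For transgenic against wild-type none of the 9 was called either, against 6.36% of all genes. An unadjusted p under 0.05 was found for 1 of the 9, against 24% of all genes.

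That gene was Mgll, which was 9.96, 10.17 and 9.84 in transgenic saline arrays against 9.68, 9.60 and 9.75 in wild-type and 9.67, 9.74 and 9.70 in knock-out. All 3 transgenic arrays were above the 6 others, with a log2 difference of 0.31 (SE 0.12, limma adjusted p = 0.11) from wild-type and 0.29 (SE 0.12, adjusted p = 0.12) from knock-out, neither past the threshold. With knock-out paraquat replicate 2 left out, both passed (adjusted p = 0.031 and 0.038). The other Mgll probe sets gave 0.17 and 0.11 for transgenic against wild-type. None of the 9 was called for transgenic against knock-out under saline, where 9.33% of all genes were.

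Under paraquat the knock-out arrays were set against the wild-type ones. None of the 9 genes was called (0.0120% of all genes were, and 0 of the 9 had an unadjusted p under 0.05, against 13.2% of all genes). The largest difference was Angptl4 at -0.30 (SE 0.20, limma adjusted p = 0.46), beside a median over all genes of -0.12. Pnpla2 was lower in all 3 knock-out paraquat arrays, with a difference of -0.27 (SE 0.14, adjusted p = 0.40). The paraquat effect itself differed between knock-out and wild-type by 0.04 for Plin4 (95% interval -1.20 to 1.28), -0.16 for Angptl4 (-0.76 to 0.44) and -0.25 for Pnpla2 (-0.67 to 0.16), and no gene of the array was called for this difference (0%; 148 of all genes and none of the 9 had an unadjusted p under 0.05).

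The transgenic cerebellum differed from both under paraquat in Plin4, Pnpla2 and Angptl4, each lower in all 3 transgenic arrays than in any wild-type or knock-out array. These comparisons share their paraquat arrays with those that chose the genes. Angptl4 also passed the filter only through the wild-type and knock-out paraquat arrays and 1 transgenic one. Its calls and adjusted p-values here and in the comparisons below rest on that choice and describe the gene only. Against wild-type 3 of the 9 were called, all lower, where 14.3% of all genes were called lower. The log2 difference was -1.56 for Plin4 (SE 0.42, limma adjusted p = 0.015), -1.43 for Angptl4 (SE 0.20, adjusted p = 0.00019) and -1.02 for Pnpla2 (SE 0.14, adjusted p = 0.00016). The Plin4 call was lost without the third transgenic paraquat array (-0.78, adjusted p = 0.051) and without the first wild-type paraquat array (-1.48, adjusted p = 0.057). Lipe was also lower in all 3 transgenic arrays (-0.54, SE 0.21) and did not pass (adjusted p = 0.071), so that 4 of the 9 genes had transgenic arrays all below the wild-type ones, against 27.6% of all genes.

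Against knock-out under paraquat 4 of the 9 were called, all lower, where 5.83% of all genes were called lower, and the same 4 had transgenic arrays all below the knock-out ones, against 7.80% of all genes. The differences were -1.62 (SE 0.42, limma adjusted p = 0.016) for Plin4, -1.13 (SE 0.20, adjusted p = 0.0019) for Angptl4, -0.77 (SE 0.21, adjusted p = 0.018) for Lipe and -0.75 (SE 0.14, adjusted p = 0.0028) for Pnpla2. Without the third transgenic paraquat array the Plin4 difference was -0.85 (adjusted p = 0.038). In a fit of only the 2 groups compared Angptl4 alone of the 9 remained called, beside 52 of all genes. The Lipe call was also lost without the second knock-out paraquat array (adjusted p = 0.052), the first transgenic paraquat array (0.069) or the second (0.070). Plin2, by contrast, was higher in transgenic paraquat arrays (8.55, 8.53 and 8.33) than in knock-out ones (8.32, 8.06 and 8.32), and did not pass (0.24, SE 0.10, adjusted p = 0.12).

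The test of the difference in paraquat effect between genotypes contains the effect that chose the genes and is given with that limit. For transgenic minus wild-type 1 of the 9 was called, where 0.180% of all genes were called. It was Pnpla2, whose paraquat effect was smaller in transgenic (-1.08, SE 0.20, limma adjusted p = 0.026). With the replicate block the adjusted p was 0.051, and the call was lost under 12 of 20 alternatives, with adjusted p up to 0.12. Angptl4 gave -1.38 (SE 0.29, adjusted p = 0.057), and Plin4, the largest in size, gave -1.82 with a wide interval of -3.06 to -0.58 (adjusted p = 0.51), and -1.05 without the third transgenic paraquat array. For transgenic minus knock-out none of the 9 was called (0.0481% of all genes were, and 3 of the 9 and 4.05% of all genes had an unadjusted p under 0.05), with -1.87 for Plin4, -1.22 for Angptl4 and -0.82 for Pnpla2 (adjusted p = 0.75, 0.17 and 0.20).

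The values of Plin4 and Pnpla2 moved together from array to array, also within groups. Over the 18 arrays, which share 6 groups and were normalised together, Pearson's r between them was 0.96, and 0.93 after each group's mean was subtracted. Plin4 and Angptl4 had r = 0.94 over the arrays and 0.67 within groups, whereas Plin4 and Lipe had 0.56 and -0.11. Abhd5 ran against Plin4, with -0.67 over the arrays and -0.82 within groups. These are descriptions of 18 arrays in which the treatment groups set most of the range. The within-group values lean on the 3 transgenic paraquat arrays, where the Plin4 SD was 1.36 against 0.22 to 0.48 in the other groups.

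**Figure D4:**
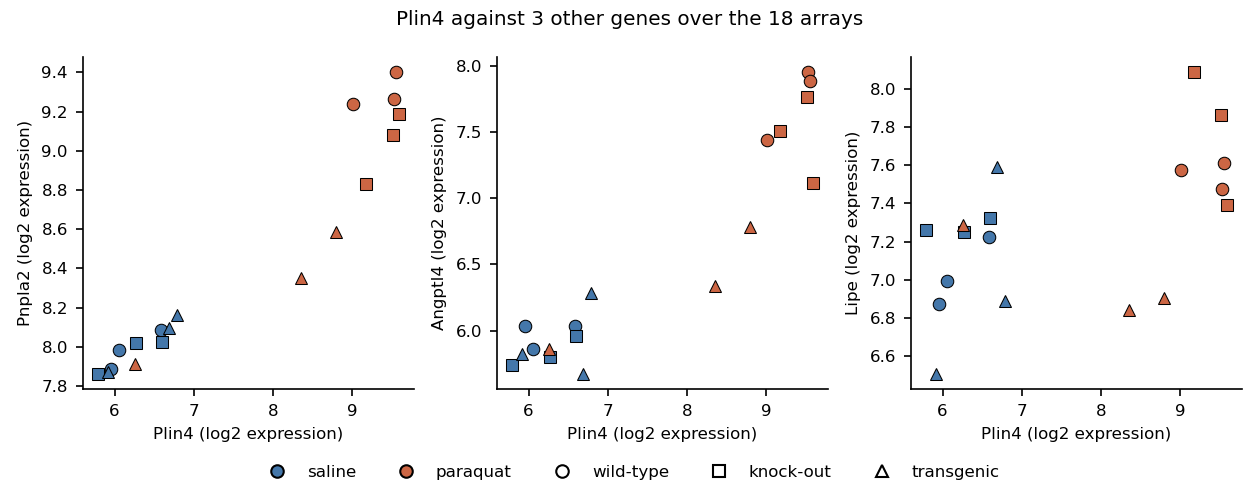
Log2 expression of Pnpla2, Angptl4 and Lipe (vertical axes) against Plin4 (horizontal axis) over the 18 arrays, 1 point per array, with colour for treatment and shape for genotype. Pnpla2 and Angptl4 lie along a line with Plin4, with the first and second transgenic paraquat arrays between the saline arrays and the other paraquat arrays, and the third transgenic paraquat array (Plin4 6.25) among the saline arrays.

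The 5 tested genes most like Plin4 over the 18 arrays by Pearson's r were Fkbp5 (0.98), Cdkn1a (0.96), Pnpla2 (0.96), Hif3a (0.95) and Slc25a33 (0.95). For Angptl4 they were Txnip (0.98), Htra1 (0.97), Ada (0.97), Sult1a1 (0.96) and Sgk3 (0.96). Ada was 4.48 to 4.63 in transgenic saline and 4.58 to 5.46 in transgenic paraquat arrays, below the 40th percentile on each. It thus passed the filter only through wild-type or knock-out arrays. Angptl4 passed only through arrays where it was high, so their likeness rests in part on the filter. For Pnpla2 they were Fkbp5 (0.97), Htra1 (0.97), Angptl4 (0.96), Cdkn1a (0.96) and Txnip (0.96). Fkbp5, a co-chaperone of steroid receptors and the gene nearest in pattern to both Plin4 and Pnpla2, was 9.19, 8.93 and 7.86 in the transgenic paraquat arrays, with transgenic saline arrays between 7.74 and 8.27. The third of these arrays was thus within the saline range for Fkbp5 as it was for Plin4.

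Plin4, Plin5 and Plin3 lie on chromosome 17, and in the RefSeq gene order of GRCm38.p6 Plin5 is the next protein-coding gene to Plin4, followed by Lrg1. Plin5, a perilipin of tissues with high fat oxidation, ran from 4.49 to 5.25 and reached the 40th percentile on no array, so its response was not tested. Lrg1, an acute-phase glycoprotein gene named here after its values were seen, was higher with paraquat by 1.59 (SE 0.17, limma adjusted p = 6.6e-06) in wild-type and 1.42 (SE 0.17, adjusted p = 3.3e-05) in knock-out. Hdgfl2 and Ubxn6, on the other side of Plin4, and Sema6b, beyond Lrg1, gave differences of at most 0.14 in size in any genotype and were not called. Angptl4 is also on chromosome 17, between Rab11b (-0.06 in wild-type) and Kank3 (0.45, SE 0.14, adjusted p = 0.14).

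Among other genes of lipid droplets, lipolysis, glycerolipid synthesis, fatty acid oxidation and fatty acid handling, 121 symbols were listed with earlier results of these data known, 96 were on the array and 75 were tested. In wild-type 5 of the 75 (6.67%) were called higher with paraquat, beside 1.53% of all genes, and none lower. They were Foxo1, a transcription factor of fasting, at 1.23 (SE 0.14, limma adjusted p = 1.9e-05), Pdk4, which restrains pyruvate oxidation, at 1.11 (adjusted p = 0.012), the lysophospholipase gene Pnpla7 at 0.64 (adjusted p = 0.036), the oxidation enzyme Eci2 at 0.53 (adjusted p = 0.0084) and Dgat2, the other triglyceride synthase beside Dgat1, at 0.49 (adjusted p = 0.0097). The median of the 75 was 0.03, against 0.02 for all genes. With 1 array left out the count ran from 2 (first wild-type saline array out) to 8 (second knock-out paraquat array out).

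By list, none of the 13 other droplet coat and assembly genes tested was called in wild-type or knock-out, with medians of -0.09 and -0.12. The call in wild-type was 1 of 14 lipases and cofactors, 1 of 12 synthesis genes, 2 of 20 oxidation genes and 1 of 16 uptake, binding and receptor genes. The receptors that are known to drive perilipin and Angptl4 transcription in other tissues were dim here, with Ppara reaching the 40th percentile on 2 arrays and Ppard and Pparg on none, so none of these 3 was tested. The droplet genes Plin5 and Cidec also stayed below it on every array, and Hilpda reached it on 2.

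In knock-out, 1 of the 75 (1.33%) was called higher with paraquat and 1 lower, beside 0.793% and 1.47% of all genes. They were Foxo1, higher at 0.93 (SE 0.14, limma adjusted p = 0.00066), and the glucocorticoid receptor gene Nr3c1, lower at -0.53 (SE 0.13, adjusted p = 0.039). In wild-type the Nr3c1 difference was -0.49 (SE 0.13) and did not pass (adjusted p = 0.071). The count became 4 when the second paraquat array of the knock-out was left out and 7 when the third was, and the Nr3c1 call was lost without the second (-0.38, adjusted p = 0.15). In transgenic none of the 75 was called. For transgenic against wild-type under paraquat 10 of the 75 were called, 8 lower (10.7%, beside 14.3% of all genes) and 2 higher (2.67%, beside 4.64%). The 8 lower ones included Foxo1 (-1.02, SE 0.14, adjusted p = 0.00014), Pdk4 (-0.93, SE 0.23, adjusted p = 0.0093) and Lpl, the lipase that Angptl4 inhibits (-0.58, SE 0.15, adjusted p = 0.011, with overlapping arrays). The 2 higher ones were Gpat4, a first-step enzyme of glycerolipid synthesis (0.51, SE 0.11, adjusted p = 0.0037), and Pcyt1a, which makes droplet phosphatidylcholine (0.36, SE 0.11, adjusted p = 0.034). That count was 5 with wild-type paraquat replicate 2 left out and 30 with knock-out paraquat replicate 2 left out, an array that enters this comparison only through the shared estimate of spread. Against knock-out under paraquat 11 of the 75 were called higher in transgenic (14.7%, beside 9.60% of all genes) and 2 lower (2.67%, beside 5.83%). In a fit of only those 2 groups none of the 75 was called, beside 52 of all genes.

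Under saline 3 of the 75 (4%) were called higher in transgenic than in wild-type and none lower, beside 6.36% of all genes called in either direction. They were Lmf1, a maturation factor of lipoprotein lipase (0.59, SE 0.13, limma adjusted p = 0.015), the phospholipase gene Abhd4 (0.50, SE 0.13, adjusted p = 0.031) and Gpat4 (0.43, SE 0.11, adjusted p = 0.024). Gpat4 was thus higher in transgenic under both treatments. Between knock-out and wild-type none of the 75 was called under either treatment, and none was called for any difference in paraquat effect between genotypes.

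**Figure D5:**
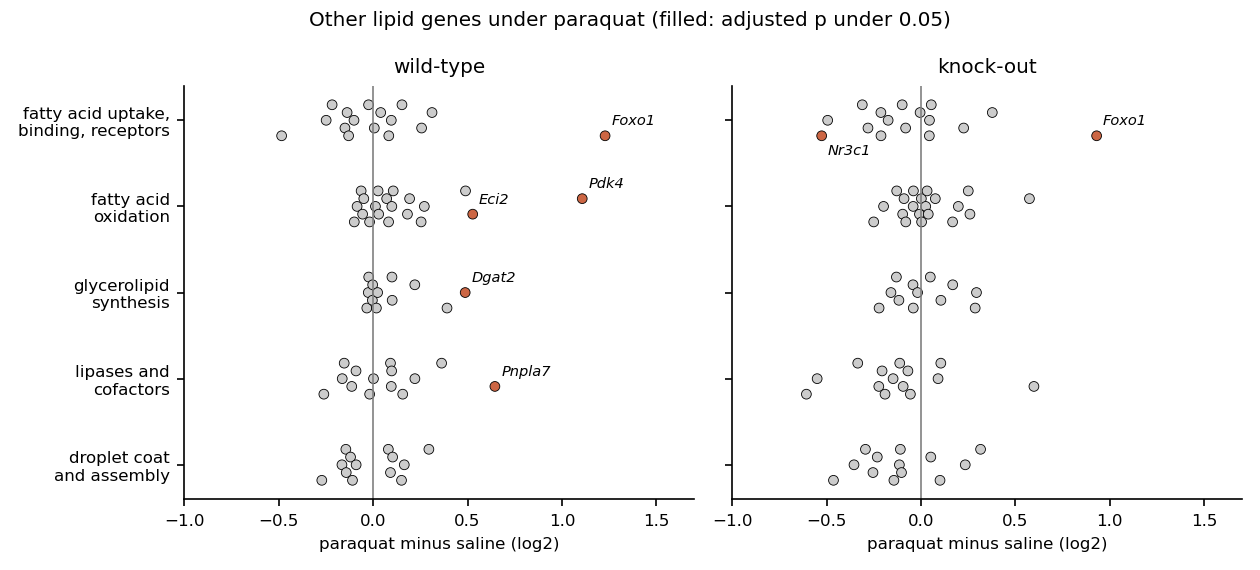
Paraquat minus saline (horizontal axis, log2) in wild-type and knock-out for the 75 other lipid genes tested, 1 point per gene, grouped by list on the vertical axis (spread within a list only to separate points). Filled points have an adjusted p under 0.05. In wild-type the filled points are Foxo1, Pdk4, Pnpla7, Eci2 and Dgat2, between 0.49 and 1.23, and none belongs to the droplet coat and assembly list.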

How the data were processed

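The deposited values are log2 expression, 1 per probe set and array; the submitters' processing notes name RMA with no version, a method that normalises arrays to 1 common distribution and so can hide a shift shared by all genes. The software release is not given in the sources used here. Of 22690 probe sets 64 were controls, 20380 had 1 gene symbol, 691 several and 1555 none. A gene took its probe set of highest mean, and was tested if it reached the array's 40th percentile on at least 3 arrays (8320 of 12393 genes). Group means were fitted to all 18 arrays with limma 3.58.1 in R 4.3.3 (lmFit, eBayes, two-sided, 12 residual degrees of freedom, Benjamini-Hochberg over the genes tested, called under 0.05). The fit was tested on simulated data. Arrays have no counts, so their number limits the precision, and no fold is set between probe sets.

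The members and the lists of other genes were chosen with earlier results of these data known. All 9 members, Apod, up to 4 called genes per list and comparison, or the 2 of smallest p where none was called, and the 5 genes most like Plin4, Angptl4 and Pnpla2 could be named, and not all were. Replicate numbers in the titles were taken to pair the transgenic arrays in the block fit of that genotype alone. The labels state no such pairing. Same-numbered transgenic saline and paraquat arrays deviated from their group means with r = 0.16, 0.13 and 0.42 over genes. The wild-type values were similar (0.09, 0.15 and 0.34), so the correlations do not single out the transgenic arrays as pairs. In knock-out they were negative (-0.09, -0.28 and -0.12). The alternatives tried were repeated quantile normalisation, no filter, every probe set, only the groups compared, array weights, the replicate block and leaving out single arrays. Promoter sequences are those of RefSeq for GRCm38.p6, and protein sequences were not used here.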

Additional observations from a re-analysis of the deposited data

Results flagged for a closer look

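The paraquat effect on Pnpla2 differed between transgenic and wild-type by -1.08 on the log2 scale (SE 0.20, limma adjusted p = 0.026), a test of the difference itself over the 12 arrays of those groups with the spread of all 18. It contains the wild-type effect for which the gene was chosen. Paraquat minus saline by replicate number was 1.29, 1.35 and 1.32 in wild-type, and 0.72, 0.19 and -0.18 in transgenic. Every transgenic value thus lay below every wild-type one, though the labels do not state that same-numbered arrays are pairs. The third transgenic arrays also had the lowest pyruvate carboxylase 3′ to 5′ differences, 1.82 and 1.95, and the first ones the highest dap control values, 11.76 and 12.19. The part of these in the result was not tested. Without the third transgenic saline and paraquat arrays the Pnpla2 difference in effect was -0.86 (limma adjusted p = 0.084).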

How the results depend on the processing

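With 3 arrays per group, no member changed direction among its called values under any alternative run. Counts of the 9 members called moved as follows. Paraquat in wild-type gave 3 in every alternative run except array weights and the fit of only the groups compared, which gave 4 by adding Lipe. Those settings called 1059 and 849 of all 8320 genes there. With array weights the other counts were 5 for paraquat in knock-out, 2 for paraquat in transgenic, 1 and 5 for transgenic against wild-type under saline and paraquat, 3 and 7 for transgenic against knock-out under saline and paraquat, and 4 for the transgenic minus wild-type and 4 for the transgenic minus knock-out difference in effect. Of all 8320 genes array weights called 2173 for paraquat in knock-out and 409 in transgenic. Under saline and paraquat they called 4112 and 4129 for transgenic against wild-type, and 4155 and 4612 against knock-out. For the same 2 differences in effect they called 687 and 839. Quantile normalisation gave 1 for transgenic against wild-type and 1 against knock-out under saline (1165 and 1477 of all genes). Using only the groups compared gave 1 for transgenic against knock-out under paraquat (52 of all genes) and 0 for the transgenic minus wild-type effect (10 of all genes). With the replicate block the transgenic minus wild-type effect gave 0 (Pnpla2 adjusted p = 0.051), and the other counts did not move. The block in the 6 transgenic arrays alone, chosen after seeing the data, gave 1 for paraquat in transgenic (12 of all genes). Leaving out the third transgenic arrays together, also chosen after seeing the data, gave 1 for paraquat in transgenic, 1 for transgenic against knock-out under saline and 0 for the transgenic minus wild-type effect (4, 542 and 8 of all genes). Leaving out single arrays gave 3 to 3 for paraquat in wild-type and in knock-out, 0 to 1 in transgenic, 0 to 1 for transgenic against wild-type under saline and 2 to 4 under paraquat, 0 to 1 for transgenic against knock-out under saline and 3 to 4 under paraquat, 0 to 2 for the transgenic minus wild-type effect and 0 to 1 for the transgenic minus knock-out effect. The cause of these moves was not tested, except that single arrays left out and fits of fewer groups hold fewer samples. Of the 75 other lipid genes, array weights called 15, 21 and 3 with paraquat in wild-type, knock-out and transgenic, against 5, 2 and 0, and 30, 39, 35 and 47 for transgenic against wild-type and against knock-out under saline and paraquat, against 3, 10, 3 and 13. In the same order array weights called 1059, 2173 and 409, and 4112, 4129, 4155 and 4612, of all 8320 genes. Only the groups compared gave 12 with paraquat in wild-type (849 of all genes), and 0 for transgenic against knock-out under paraquat (52 of all genes). Angptl4 lay under the 40th percentile on every saline array, so its difference from saline may be understated.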
